A study of Callithrix jacchus with 6 samples.

Results

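Ependymal ciliated cells, the epithelium that lines the brain ventricles, made up 855 of the 46582 cell barcodes in a single-cell survey of the hippocampus of aged common marmosets (Callithrix jacchus). A barcode was counted as ependymal when it held at least 3 of the cilia genes DNAH9, CFAP43, SPAG17, RP1, FOXJ1 and RSPH1, when their summed unique molecular identifiers (UMIs, 1 per captured RNA molecule) reached 15 per 10000, and when MOG, GAD2 and SLC17A7, markers of oligodendrocytes and neurons, summed to at most 1 UMI. Of these cells 104 came from sevoflurane libraries and 751 from control libraries. The cells were selected on measured UMIs of these genes, so the levels of the rule genes are given as a description only.

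The study set 3 libraries of marmosets given sevoflurane, an inhaled anaesthetic, for 6 h against 3 control libraries given oxygen for 6 h. Hippocampi were digested with collagenase and the cells were frozen before 10x Genomics capture, per the labels' protocols. The series title asks about FKBP5, a co-chaperone of the glucocorticoid receptor that is also one of its target genes, in microglia. The labels do not say that replicates came from separate animals, so p-values measure the spread between these libraries, which may be technical.

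Ependymal cells carry tufts of motile cilia that move cerebrospinal fluid along the ventricle wall. Each motile cilium is an axoneme of doublet microtubules around a central pair. Outer and inner dynein arms power the beat, radial spokes and the central apparatus coordinate it, and the nexin-dynein regulatory complex links the doublets. Intraflagellar transport builds the axoneme, and transcription factors such as FOXJ1, the RFX family and MYB switch on the genes. In the brain, the choroid plexus, a secretory epithelium continuous with the ependyma, also bears cilia.

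The libraries held 8577, 7329 and 7103 barcodes for sevoflurane replicates 1 to 3 and 8236, 7170 and 8167 for control replicates 1 to 3. Sevoflurane replicate 3 stood apart from the rest. RORB, known from layered cortex, stood at 379 CPM (UMIs per 1000000 of the summed cells) in its neurons, taken as barcodes with at least 2 SLC17A7 UMIs, and the remaining 5 libraries had 13.4 to 52.7. ZBTB20, a hippocampal transcription factor, stood at 29.7 CPM there, and the remaining libraries had 340 to 645. It also held the fewest ependymal cells. The ependymal share and some of the named genes are given with and without it. Barcode sequences were shared between libraries in 261 of 46320 cases. None of the 855 cells had the same sequence as an ependymal cell of another library, and 12 had that of some other barcode.

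The rule rested on 4 of its 6 genes. SPAG17 matched no gene in the files by symbol or identifier, and FOXJ1, the master regulator of motile cilia, had 16 UMIs in all barcodes and 1 in the ependymal cells. DNAH9, an outer arm heavy chain, was detected in 100% of the ependymal cells, RP1, a microtubule-binding protein, in 92.9%, CFAP43, a cilia- and flagella-associated protein, in 89.8% and RSPH1, a radial spoke head protein, in 70.3%. As a background level, DNAH9 had a UMI in 10.6% to 18.3% of astrocytes per library, at median depths of 2437 to 3454 UMIs, against 2696 to 3422 UMIs in ependymal cells. In neurons, at median depths of 6496 to 10662 UMIs, it had one in 39.4% to 77.4% of cells. RP1 was found in 0% to 2.53% of astrocytes.

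The edges of the rule were thinly filled on its level and well filled on its counts. The lowest ependymal cell held 15.98 rule gene UMIs per 10000, the highest barcode kept out by this clause alone held 14.8, and 7 cells lay between 15 and 20. By contrast 401 cells held exactly 3 rule genes and 454 held 4, and a further 177 barcodes met every other clause with 2. A single excluded UMI was present in 354 cells and none in 501, while 289 barcodes failed on the excluded genes alone.

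The label was checked on ciliary genes outside the rule. The lists of axoneme, dynein assembly and intraflagellar transport genes held 140 such genes. Per cell, their UMIs had medians of 546, 559 and 518 per 10000 in sevoflurane replicates 1 to 3, and of 560, 577 and 583 in control replicates 1 to 3. Astrocytes had medians of 45.2 to 51.7 and neurons of 48.8 to 54.5. All 6 ependymal medians lay far above those of both other cell types. Summed over cells, the 140 genes came to 55058 ± 2341 CPM in ependymal cells and 5197 ± 402 CPM in astrocytes (SD, n = 5 libraries, leaving out sevoflurane replicate 3 with its 7 cells). Of the 140, 133 had a higher mean in ependymal cells and 89 exceeded astrocytes by over 5-fold.

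**Figure D1:**
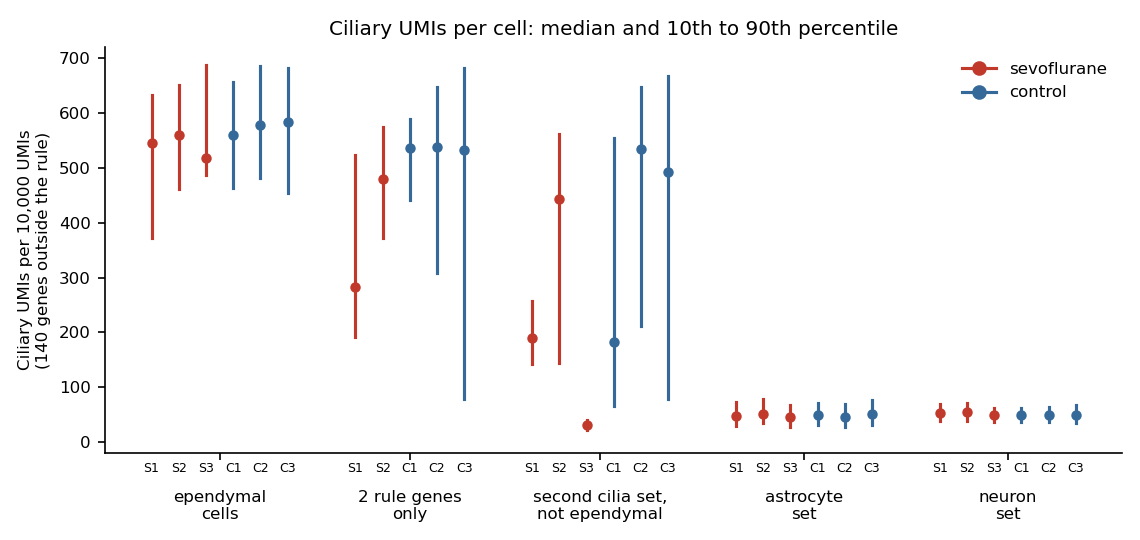
Ciliary UMIs per 10000 UMIs, summed over 140 genes outside the rule, for each cell set and library (S1 to S3 sevoflurane, C1 to C3 control). Points are medians over cells and lines run from the 10th to the 90th percentile. Ependymal medians lie between 518 and 583 in all 6 libraries, and astrocyte and neuron medians lie under 55.

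Dynein arm genes stood far above astrocytes. Without the rule gene DNAH9, outer dynein arm genes summed to 5184 ± 424 CPM in ependymal cells, 37.9-fold over astrocytes (SD, n = 5 libraries). Without the rule gene CFAP43, inner arm genes summed to 13822 ± 710 CPM, 22.1-fold over astrocytes. The outer arm heavy chain DNAH11 reached 2568 ± 299 CPM, 152-fold its astrocyte level, and the docking complex gene ODAD2 reached 786 ± 56.0 CPM, 136-fold. The inner arm heavy chains DNAH6 (3219 ± 285 CPM, 36.5-fold over astrocytes) and DNAH12 (1748 ± 60.5 CPM, 70.1-fold) were also high. UMI levels are not divided by gene length, so levels of different genes are not ranked here. DNAH9 had 3517, 3342 and 3897 CPM in sevoflurane replicates 1 to 3 and 3537, 3634 and 3484 CPM in control replicates 1 to 3.

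Genes of the coordinating structures were also higher than in astrocytes. Central apparatus genes were 32.8-fold over astrocytes, with HYDIN, a central pair protein whose loss causes hydrocephalus in mice, at 3211 ± 223 CPM. Radial spoke genes without the rule gene RSPH1 were 12.6-fold and nexin-dynein regulatory complex genes 10.7-fold over astrocytes. CCDC39 and CCDC40, which set the repeat spacing of the axoneme, had 386 ± 45.0 and 495 ± 56.3 CPM. Proteins inside the doublet lumen were 6.08-fold over astrocytes. Of these CFAP52 had 626 ± 42.9 CPM, 89.2-fold over astrocytes.

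Dynein arm assembly factors, which serve motile cilia, were 4.11-fold over astrocytes. Among lists with genes that cells with a single primary cilium also use, tubulin modifying enzymes were 4.32-fold, planar polarity and basal body genes 3.41-fold and intraflagellar transport genes 3.33-fold over astrocytes. DYNC2H1, the heavy chain of the retrograde transport motor, had 973 ± 55.5 CPM, 5.66-fold over astrocytes. AGBL4, an enzyme that trims glutamate chains from tubulin, had 4050 ± 155 CPM, 8.14-fold over astrocytes. Neurons had 1900 CPM of AGBL4. Tubulin modifying enzymes summed to 6105 CPM in ependymal cells and 3108 CPM in neurons.

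Regulators of multiciliation were measured unevenly. RFX2 and RFX3, activators of cilia genes, had 571 ± 59.8 and 559 ± 43.4 CPM, 3.61-fold and 3.89-fold over astrocytes, while RFX4 was at 0.498 of its astrocyte level. DEUP1, a scaffold of the deuterosomes on which centrioles are amplified, had a UMI in 61.4% of cells. MYB was detected in 32.9% of the cells, GMNC in 16.3% and TP73 in 15.4%. MCIDAS, which acts early in the multiciliation programme, had no UMI in 855 cells, which allows a share of cells with a UMI of up to 0.351%. That limit does not cover cells that express the gene below what these depths capture. CCNO was seen in 2 cells.

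**Figure D2:**
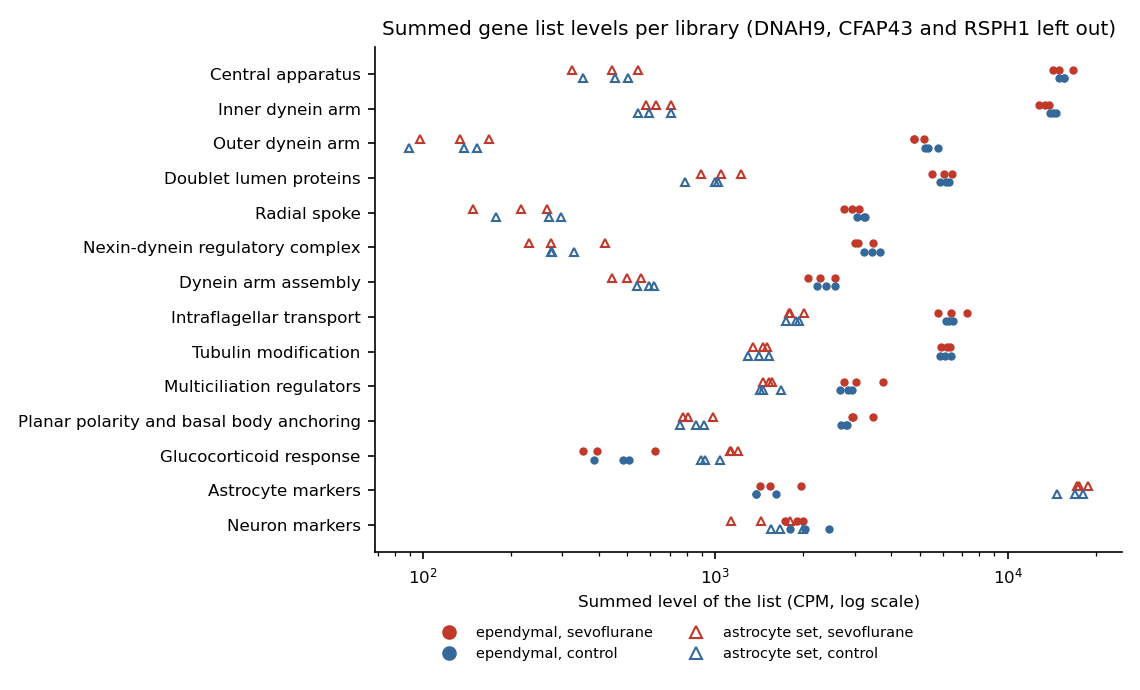
Summed level of each gene list in CPM on a log scale, 1 point per library; filled circles are ependymal cells, open triangles the astrocyte set, red sevoflurane and blue control. DNAH9, CFAP43 and RSPH1 are left out of their lists. The upper 11 lists, all of cilia and their regulation, lie right of the astrocyte points in every library, and glucocorticoid response genes and astrocyte markers lie left of them.

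The genes that most set ependymal cells apart from all other barcodes were not all axonemal. By rule these were the 15 named genes with the highest ratio of CPM at a mean of at least 50 CPM: TTC34, C10orf67, CIB4, MAPK15, TMEM212, BEST4, CDHR4, LMNTD1, RP1, VWA3B, FRMPD2, HOATZ, C1orf87, CRB1 and C9orf135. TMEM212, a membrane protein, had 464 ± 75.7 CPM, 124-fold over other barcodes, and CDHR4, a cadherin-related protein, had 1596 ± 130 CPM, 121-fold. CRB1, an apical polarity protein, had 2756 ± 433 CPM, 97.9-fold over other barcodes, and was detected in 98.0% of the cells. BEST4, a bestrophin channel, had 467 ± 50.6 CPM, 121-fold over other barcodes.

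Glial genes shared with astrocytes were present at lower levels. The 10 astrocyte markers summed to 1417, 1958 and 1534 CPM in sevoflurane replicates 1 to 3 and to 1608, 1377 and 1382 CPM in control replicates 1 to 3, 0.0915 of the level in astrocytes, which 6 of these markers had selected. GFAP, an intermediate filament protein, had a UMI in 36.1% of ependymal cells and AQP4, a water channel, in 23.3%. SLC1A2, the main glutamate transporter of astrocytes, stood at 0.0133 of its astrocyte level, with 140 ± 49.7 CPM. Markers of microglia (41.5 to 111 CPM in sum), endothelium (11.9 to 94.0 CPM) and fibroblasts (0 to 33.1 CPM) were low. SCGB1A1, of airway epithelium, had no UMI. The 5 measured tanycyte markers summed to 206 ± 45.8 CPM, 1.56-fold over astrocytes (SD, n = 5 libraries). Of these RAX, which defines tanycytes, had no UMI, while COL25A1 was detected in 19.8% of the cells and CRYM in 17.3%. The 5 markers were higher in neurons, at 489 CPM in sum. COL25A1 had 136 CPM in ependymal cells and 396 CPM in neurons, and CRYM 70.0 and 92.2 CPM. Neuronal markers summed to 1982 ± 280 CPM, against 1556 CPM in astrocytes and 9412 CPM in neurons. They include SLC17A7 and GAD2, which the rule capped, and SLC17A7 had selected the neurons, so the gap to neurons was partly set in advance. CSMD1 alone had 1348 CPM in ependymal cells.

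Sevoflurane replicate 1 differed from the other libraries by a second ciliated population. Barcodes were also gated on a second set of cilia genes, DNAH6, DNAH12, CFAP54, HYDIN and ODAD2, with the other clauses kept. This set held 1453 barcodes and took in 853 of the 855 ependymal cells. Outside the ependymal cells it held 395, 21 and 2 barcodes in sevoflurane replicates 1 to 3, against 20, 89 and 73 in control replicates 1 to 3. The ciliary level of the 395 was 189 UMIs per 10000, against 546 for the ependymal cells of that library.

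Those 395 barcodes carried choroid plexus genes. The serotonin receptor HTR2C, abundant in choroid plexus, had 444 CPM in the 45 ependymal cells of sevoflurane replicate 1 and 9143 CPM in the 395 barcodes, 20.6-fold more. The chloride channel protein CLIC6 had 303 CPM in the ependymal cells and 1523 CPM in the 395 barcodes. TTR, the thyroid hormone carrier of choroid plexus, had 56.4 CPM in the ependymal cells and 359 CPM in the 395 barcodes. The markers KL, SLC4A5, SLC4A10 and KCNJ13 were also higher in the 395. FOLR1 went the other way, at 14.1 CPM (2 UMIs) in the ependymal cells and 4.45 CPM (6 UMIs) in the 395. Of the 395 barcodes, 68 were in the choroid plexus set counted below. Of genes in neither gate, ependymal cells had 48.9-fold more CRB1, 44.9-fold more CDHR4, 36.5-fold more TMEM212 and 35.9-fold more LRP2, an endocytic receptor. CRB1, CDHR4 and TMEM212 had been named for their ratio to all other barcodes. Those include the 395, so their excess was partly set in advance. CFAP299, a cilia- and flagella-associated protein, had 6773 CPM in the ependymal cells and 943 CPM in the 395 barcodes, 7.18-fold more. RP1 had 1410 CPM in the ependymal cells and 17.8 CPM in the 395 barcodes, but RP1 helped to choose the ependymal cells. This is 1 library, so the differences have no replicate check.

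**Figure D3:**
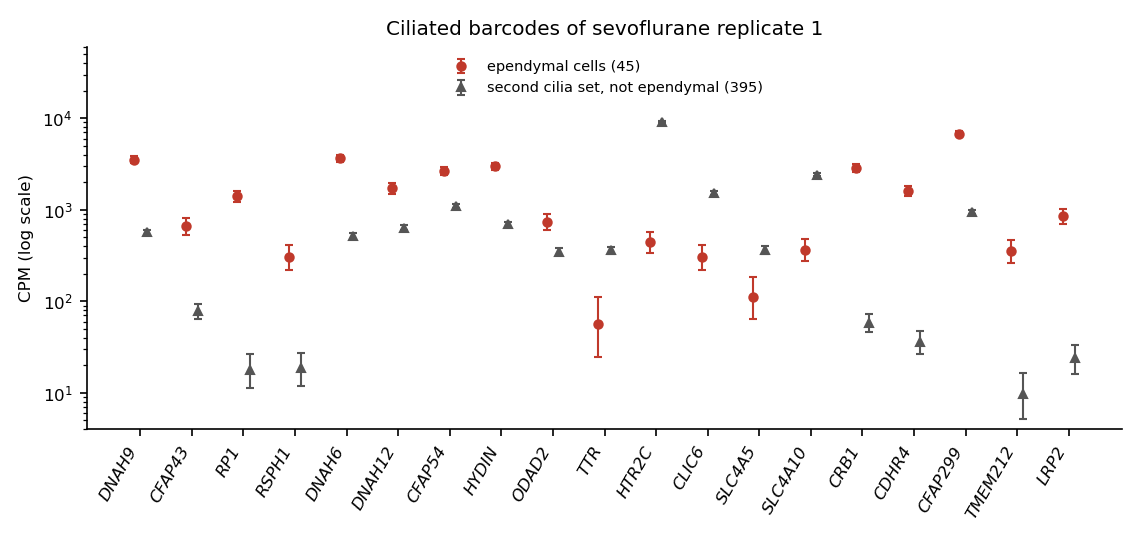
Levels in CPM on a log scale in the 45 ependymal cells (circles) and the 395 other barcodes of the second cilia set (triangles) of sevoflurane replicate 1, with exact 95% Poisson intervals. FOXJ1, FOLR1, KCNJ13, KL and MYB are not drawn. CRB1, CDHR4, RP1 and LRP2 are 35.9- to 79.1-fold higher in ependymal cells, and HTR2C is 20.6-fold higher in the other barcodes. RP1 is a gene of the ependymal rule, and CRB1 and CDHR4 were named for their ratio to all other barcodes.

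Choroid plexus markers were also counted in the ependymal cells of that library. The 8 measured choroid plexus markers summed to 1325, 436 and 456 CPM in the ependymal cells of sevoflurane replicates 1 to 3, against 468, 404 and 522 CPM in control replicates 1 to 3. The surplus in sevoflurane replicate 1 included HTR2C, found in 8 of its 45 cells, and TTR, found in 6 of them and in no ependymal cell elsewhere. Whether these UMIs came from free RNA, doublets or choroid plexus cells was not tested. Their part in the treatment comparison was not tested beyond leaving that library out.

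Ependymal cells were scarcer in every sevoflurane library than in any control library. They numbered 45, 52 and 7 in sevoflurane replicates 1 to 3, against 167, 246 and 338 in control replicates 1 to 3. As a share of barcodes this was 0.525% (exact 95% interval 0.383% to 0.701%), 0.710% (0.530% to 0.929%) and 0.0985% (0.0396% to 0.203%) with sevoflurane, against 2.03%, 3.43% and 4.14% in controls. The intervals cover counting error only. The share averaged 0.444 ± 0.313% with sevoflurane and 3.20 ± 1.07% in controls (SD, n = 3 each), 7.20-fold lower. The groups did not overlap, and the exact two-sided permutation test gave p = 0.1, the smallest that 3 against 3 libraries allow.

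The difference kept its direction without the library that stood apart. Without sevoflurane replicate 3 the shares averaged 0.617% with sevoflurane and 3.20% in controls. The exact permutation test then gave p = 0.2 (n = 2 and 3), where 0.1 was the smallest possible. Per 100 astrocytes, a denominator chosen after the data were seen, there were 17.5, 31.0 and 3.23 ependymal cells with sevoflurane, against 79.5, 77.8 and 99.1 in controls. After thinning each barcode to 1000 UMIs the shares averaged 0.326% with sevoflurane and 2.31% in controls. The astrocyte share itself averaged 2.78 ± 0.424% with sevoflurane and 3.71 ± 1.01% in controls (exact permutation p = 0.3, n = 3 each). With the second cilia genes the shares were 5.13%, 0.996% and 0.127% with sevoflurane, against 2.27%, 4.67% and 5.01% in controls (exact permutation p = 0.4, n = 3 each), since the 395 barcodes of sevoflurane replicate 1 were then counted.

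Tissue captured beside the ependyma also varied. Barcodes of the choroid plexus set numbered 84, 0 and 0 in sevoflurane replicates 1 to 3, against 0, 5 and 0 in control replicates 1 to 3. This gate needed at least 3 of TTR, HTR2C, KL and FOLR1, since AQP1 and OTX2 matched no gene in the files. FOLR1 had 4 UMIs in the set of sevoflurane replicate 1. The gate was therefore strict, and a count of 0 does not mean that choroid plexus was absent. The part of such differences in captured tissue, and of the RORB and ZBTB20 values of sevoflurane replicate 3, in the lower ependymal share was not tested.

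**Figure D4:**
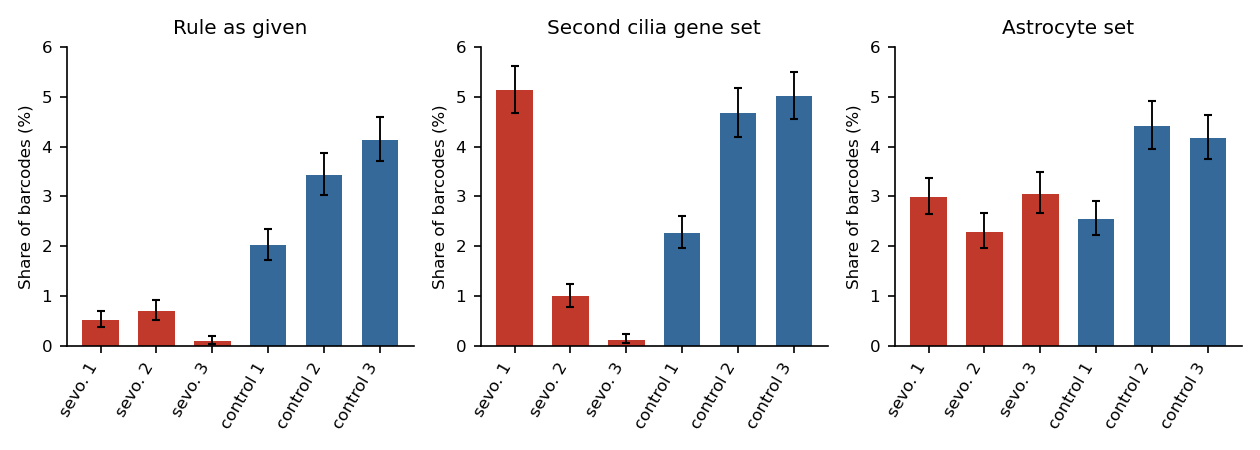
Share of barcodes in each library under the given rule (left), with the second cilia genes (middle) and for the astrocyte set (right); bars are single libraries, red sevoflurane and blue control, with exact 95% intervals. Under the given rule all 3 sevoflurane libraries lie at or below 0.710% and all 3 controls at or above 2.03%; with the second genes sevoflurane replicate 1 reaches 5.13%.

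Median depth per ependymal cell lay in a narrow range. The ependymal cells had median UMIs of 2696, 2903 and 3422 in sevoflurane replicates 1 to 3 and 2922, 2734 and 2784 in control replicates 1 to 3. Their summed UMIs were 141886, 167547 and 24122 with sevoflurane, against 513191, 783759 and 999906 in controls. Expression was therefore compared between sevoflurane replicates 1 and 2 and the 3 controls, since the 7 cells of sevoflurane replicate 3 were under the minimum of 10.

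A single gene passed the test in ependymal cells, and it was lower with sevoflurane. edgeR's quasi-likelihood test with Benjamini-Hochberg adjustment called 1 of 8180 genes at an adjusted p under 0.05, 0.0122% of those tested, with 0 higher and 1 lower. An unadjusted p under 0.05 was reached by 682 genes, 8.34%. Other tools called few genes as well, 3 with DESeq2 (2 higher, 1 lower) and 12 with voom and quality weights (8 higher, 4 lower). With all 6 libraries no gene was called by edgeR, and 498 of 6264 had an unadjusted p under 0.05. Leaving out a library gave 6 called genes without sevoflurane replicate 1, 3 without sevoflurane replicate 2, 51 without control replicate 1 and 0 without control replicate 2 or 3.

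The gene was PDE4D, a phosphodiesterase that breaks down cyclic AMP, the second messenger. It had 437 and 442 CPM in sevoflurane replicates 1 and 2, against 906, 1063 and 921 CPM in control replicates 1 to 3. The groups did not overlap, with a log2 fold change of -1.15 ± 0.17 (SE) and an edgeR adjusted p of 0.0374. The 7 cells of sevoflurane replicate 3, outside the fit, had 871 CPM, near the controls, and with that library the edgeR adjusted p was 0.127. The call was also lost without sevoflurane replicate 1 (0.0644), sevoflurane replicate 2 (0.0923), control replicate 2 (0.104) or control replicate 3 (0.300). The log2 fold change itself stayed between -1.18 and -1.07 when each library was left out and was -0.99 with all 6 libraries. The call held in 7 of 18 alternatives, whose adjusted p ran from 4.89e-08 to 0.668, the highest with no limit on excluded genes, where the log2 fold change was -0.55.

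PDE4D levels in other cells were also below every control library. Astrocytes had 1762, 1564 and 1840 CPM in sevoflurane replicates 1 to 3, against 2059, 2509 and 2112 CPM in control replicates 1 to 3. All barcodes other than ependymal cells had 1987, 1827 and 2110 CPM with sevoflurane and 2386, 2446 and 2380 CPM in controls. The ependymal response minus the astrocyte response was -0.71 ± 0.29 on the log2 scale (SE), with a limma adjusted p of 0.495.

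The next genes by p did not pass the test and are given as values. LRP2, megalin, an endocytic receptor of the ependymal surface, had 853 and 1158 CPM in sevoflurane replicates 1 and 2, against 573, 421 and 504 CPM in controls. Its log2 fold change was 1.00 ± 0.19 (SE, edgeR adjusted p = 0.0975), and sevoflurane replicate 3 had 373 CPM, below all controls. Astrocytes had 20.9, 32.5 and 17.8 CPM of LRP2 in sevoflurane replicates 1 to 3, against 13.1, 13.6 and 11.2 CPM in control replicates 1 to 3. The ependymal minus the astrocyte response was 0.08 ± 0.36 (log2, SE, limma adjusted p = 0.960). WWC1, the Hippo pathway protein KIBRA, had a log2 fold change of 1.12 ± 0.22 (adjusted p = 0.118), with 881 and 871 CPM in sevoflurane replicates 1 and 2, against 536, 296 and 376 CPM in controls and 249 CPM in sevoflurane replicate 3. LAMA3, a laminin chain, had 56.4 and 137 CPM in the sevoflurane replicates fitted and 27.3, 26.8 and 26.0 CPM in controls (log2 fold change 1.88 ± 0.40, adjusted p = 0.164). That value was 0.25 without the cells of the 5% highest doublet scores, 0.46 at 25 rule gene UMIs per 10000 and 1.04 without sevoflurane replicate 2. All barcodes other than ependymal cells had more LAMA3, at 196, 415 and 80.1 CPM in sevoflurane replicates 1 to 3. They had 160, 69.3 and 121 CPM in control replicates 1 to 3. The part of RNA from other cells in the ependymal LAMA3 values was not tested. The 2 remaining genes on the higher side carry no symbol. ENSCJAG00000060471 had 106 and 35.8 CPM in sevoflurane replicates 1 and 2, against 5.85, 5.10 and 13.0 CPM in controls (log2 fold change 2.97 ± 0.61, adjusted p = 0.140), and the log2 fold change was 2.03 without sevoflurane replicate 1. ENSCJAG00000052883 had a log2 fold change of 1.99 ± 0.42. Both had 0 CPM in sevoflurane replicate 3, where 1 UMI was worth 41.5 CPM.

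On the lower side the same held. PDE10A, a phosphodiesterase for cyclic AMP and cyclic GMP, had 106 and 71.6 CPM in sevoflurane replicates 1 and 2, against 273, 222 and 276 CPM in controls (log2 fold change -1.56 ± 0.28 (SE), edgeR adjusted p = 0.0975). DPP10, a potassium channel auxiliary subunit, and SLC8A1, a sodium-calcium exchanger, had log2 fold changes of -1.14 ± 0.22 and -1.26 ± 0.25. Sevoflurane replicate 3, outside the fit, had 580 CPM of DPP10, inside the control range of 477 to 639 CPM. All barcodes other than ependymal cells had 835, 801 and 3001.5 CPM of DPP10 in sevoflurane replicates 1 to 3. They had 2122, 2302 and 1256 CPM in control replicates 1 to 3. The ependymal minus the astrocyte response was 0.34 ± 0.38 for DPP10 and -0.62 ± 0.28 for SLC8A1 (log2, SE, limma adjusted p = 0.803 and 0.517). With all 6 libraries the log2 fold changes were -1.41 for PDE10A, -0.95 for DPP10 and -1.17 for SLC8A1. In neurons PDE10A had 451, 279 and 231 CPM with sevoflurane and 634, 742 and 618 CPM in controls, and the part of neuronal RNA in the ependymal values was not tested.

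**Figure D5:**
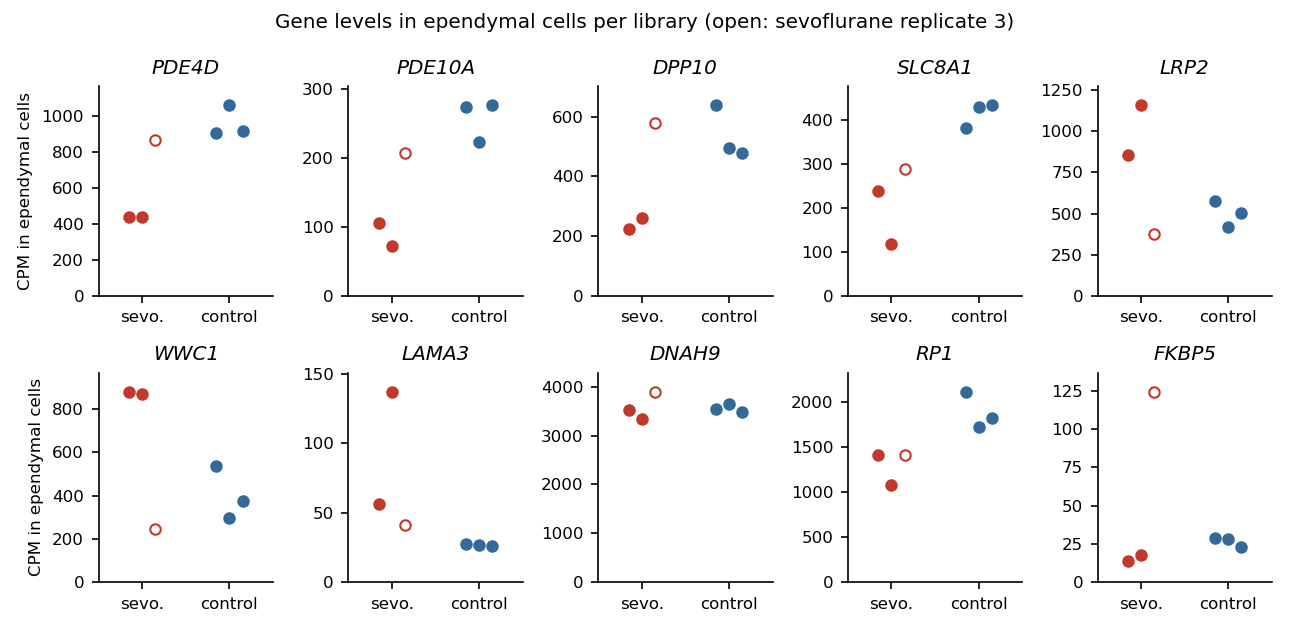
Level of 10 genes in ependymal cells in CPM, 1 point per library, sevoflurane left and control right in each panel; open points are sevoflurane replicate 3 with 7 cells. PDE4D is at 437 and 442 in the fitted sevoflurane libraries and 906 to 1063 in controls, while the open point is at 871; the rule genes DNAH9 and RP1, and FKBP5, are shown beside it.

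Ciliary genes gave no call. Of the 140 outside the rule, 130 passed the filter on low counts, and edgeR called 0 of them in either direction, with 5 at an unadjusted p under 0.05. Of the 130, 96 had a negative and 34 a positive log2 fold change, 73.8% negative, against 51.2% of all genes tested. Their median log2 fold change was -0.12, against -0.01 over all genes tested. It was -0.07 without sevoflurane replicate 1 and -0.20 without sevoflurane replicate 2. The groups did not overlap on the lower side for 27 of the 130 (20.8%) and on the higher side for 12 (9.23%), against 14.6% and 13.5% of all genes tested. The 140 genes together summed to 52387, 53215 and 58038 CPM in sevoflurane replicates 1 to 3, against 55332, 58255 and 56102 CPM in control replicates 1 to 3, so the groups overlapped once sevoflurane replicate 3 was counted.

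By structure, the list medians were small. With rule genes left out, inner dynein arm genes had a median log2 fold change of -0.20, with 11 of 13 negative, and outer arm genes -0.14, with 9 of 11 negative. Radial spoke genes had -0.15 without RSPH1, central apparatus genes -0.08, doublet lumen genes -0.13 and intraflagellar transport genes -0.15. No member passed the test, and a few are given as values, chosen after their values were seen. TEKT2, a tektin of the doublet wall, had 70.5 and 53.7 CPM in the fitted sevoflurane libraries, against 29.2, 28.1 and 17.0 CPM in controls (log2 fold change 1.34 ± 0.45, edgeR adjusted p = 0.405). DNAH11 had 2347 and 2167 CPM with sevoflurane, against 2734, 2886 and 2708 CPM in controls (log2 fold change -0.31 ± 0.13, adjusted p = 0.546), while sevoflurane replicate 3 had 2778 CPM. RP1, a rule gene, had 1410, 1080 and 1410 CPM in sevoflurane replicates 1 to 3, against 2112, 1723 and 1820 CPM in control replicates 1 to 3.

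Genes of the epithelial surface varied in both directions. Of 15 tested ependymal epithelium genes, 7 had a positive and 8 a negative log2 fold change, and none was called. PROM1, prominin of apical membrane protrusions, had 35.2 and 17.9 CPM with sevoflurane, against 56.5, 112 and 67.0 CPM in controls (log2 fold change -1.62 ± 0.52, edgeR adjusted p = 0.360). Among astrocyte markers ALDH1L1 had 70.5 and 71.6 CPM in sevoflurane replicates 1 and 2, against 27.3, 20.4 and 15 CPM in controls. The 7 cells of sevoflurane replicate 3 had 0 CPM of it. SLC1A2 had 77.5 and 95.5 CPM in sevoflurane replicates 1 and 2, against 183, 175 and 170 CPM in controls. Neither gene was called (edgeR adjusted p = 0.201 and 0.239).

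FKBP5 was sparse in ependymal cells. It had 2, 3 and 3 UMIs in sevoflurane replicates 1 to 3, against 15, 22 and 23 in control replicates 1 to 3. Scaled to depth these were 14.1, 17.9 and 124 CPM with sevoflurane (exact 95% Poisson intervals 1.71 to 50.9, 3.69 to 52.3 and 25.6 to 363), against 29.2, 28.1 and 23.0 CPM in controls. A single UMI was worth 41.5 CPM in sevoflurane replicate 3. The fit without that library gave a log2 fold change of -0.71 ± 0.61 (SE, edgeR adjusted p = 0.831), so no change was detectable at this depth. The direction turned in 1 of 13 alternatives.

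The astrocytes of the same libraries held more FKBP5. They had 162, 152 and 177 CPM in sevoflurane replicates 1 to 3, against 93.4, 105 and 56.9 CPM in control replicates 1 to 3, so the groups did not overlap. The astrocyte fit used the same 5 libraries as the ependymal fit, without sevoflurane replicate 3. In it edgeR called 4 of 8746 genes, 0.0457%, and FKBP5 was not among them (log2 fold change 0.89 ± 0.24, SE, adjusted p = 0.230). The response in ependymal cells minus that in astrocytes was -1.53 ± 0.33 on the log2 scale (SE), with a limma adjusted p of 0.364 and a range of 0.0715 to 0.842 over 5 alternatives. Across 7289 genes limma called 0 as responding differently in the 2 cell types, with 711 (9.75%) at an unadjusted p under 0.05. That count was 166 without sevoflurane replicate 1 and 209 without sevoflurane replicate 2, each leaving a lone sevoflurane library that was assumed to vary like the controls.

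Glucocorticoid response and chaperone genes gave no call. Of the 20 measured glucocorticoid response genes, 6 passed the filter, FKBP5 among them, all with a negative log2 fold change (median -0.39) and none at an unadjusted p under 0.05. The median was -0.75 over 8 genes without sevoflurane replicate 2. It was 0.02 when no excluded UMI was allowed and -0.14 or -0.20 without control replicate 2 or 3, each time over the 3 genes that then passed, without FKBP5. The list summed to 352, 394 and 622 CPM in sevoflurane replicates 1 to 3, against 384, 485 and 506 CPM in control replicates 1 to 3. It was at 0.415 of its astrocyte level. Of 17 heat shock and chaperone genes tested, 14 had a negative log2 fold change (median -0.18), 82.4% against 51.2% of all genes tested. HSP90AA1 had 416 and 400 CPM in the fitted sevoflurane libraries, inside the range of the controls (261, 304 and 490 CPM). Of 11 anaesthetic target genes tested, 8 (72.7%) had a negative log2 fold change (median -0.20).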

How the data were processed

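RNA of marmoset hippocampal cells was counted in 6 libraries. As deposited, each value was a whole, unnormalised count of UMIs for 1 gene in 1 barcode, made by the authors with Cell Ranger (6.1.1, per the file headers) after base calling with CASAVA 1.8, per the submitters' processing notes, which also name Seurat. The genome build is not given in the sources used here. Of gene features, 29320 were listed, comprising 15188 with a symbol, 1397 named through the reference name table and 12735 left as identifiers. Library totals ran from 41164947 to 47886816 UMIs.

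The rule was applied to raw counts of every deposited barcode. Astrocytes (AQP4, GJA1, ALDH1L1, GFAP, FGFR3, ETNPPL) and a choroid plexus set (TTR, HTR2C, KL, FOLR1, AQP1, OTX2) were gated the same way, and neurons were barcodes with at least 2 UMIs of SLC17A7. AQP1 and OTX2 matched no gene in the files. Doublets were not removed, and an alternative left out the 5% of barcodes with the highest scrublet scores (scanpy 1.11.5). Counts were summed per library, so the library was the replicate, and libraries with at least 10 ependymal cells were fitted with edgeR 4.0.16 (R 4.3.3; filterByExpr, TMM, quasi-likelihood F test, Benjamini-Hochberg adjustment over all genes tested), with changed genes called at an adjusted p under 0.05. Each standard error was derived from the log2 fold change and the F statistic. Responses of ependymal cells and astrocytes were compared with limma 3.58.1 on within-library differences of log2 CPM (prior count 2). DESeq2 1.42.0 and voom were alternatives. Shares were tested with an exact permutation test. Scripts were tested on simulated data.

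Named genes were the rule genes, up to 5 highest members per list, the 15 genes most above other barcodes, FKBP5, called genes filled up to 5 per direction by p, and up to 3 members per list with the largest change. The members and lists were chosen with earlier results of these data known. Same-numbered libraries were not treated as pairs, since the labels give numbers only. Sequences and coordinates were not used here. Some genes that the naming rule selects are not reported here.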

Additional observations from a re-analysis of the deposited data

How the results depend on the processing

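The lower ependymal share kept its direction under every alternative run, with differences in percentage points of -3.54 to -1.47 over the rule changes, thinning and doublet removal and -3.34 to -2.29 when each library was left out in turn; per 100 astrocytes it was -68.3. The count of changed genes was not stable. It was 1 as reported and 0 with at least 2 rule genes, at least 4 rule genes, no limit on excluded genes, no excluded UMI, all 6 libraries or the replicate block. It was 3 with DESeq2 (PDE4D, LRP2 and ENSCJAG00000060471), 4 at 10 rule gene UMIs per 10000 (DAB1, LAMA3, KCNIP4 and CCDC85A, named after their values were seen, without PDE4D), 12 with voom and 85 without the low count filter. Leaving out each library gave 0 to 51, the highest without control replicate 1; without sevoflurane replicate 2 the 3 genes were HTR2C, TRPM3 and RELN. Where 1 sevoflurane library remained, it was assumed to vary like the controls. FKBP5 had a log2 fold change of 0.11 with at least 2 rule genes, reversed from -0.71, and -0.93 to -0.58 when libraries were left out; the cause was not tested. It did not pass the filter in 5 further alternatives. The ciliary median moved to -0.19 with at least 2 rule genes, -0.21 at 10 UMIs per 10000 and -0.24 without the filter, where the median of all genes was -0.29, and ran from -0.202 to -0.0704 when libraries were left out. The glucocorticoid median was -0.13 with at least 2 rule genes, -0.22 with at least 4 or at 10 UMIs per 10000, 0.017 with no excluded UMI and -0.65 without the filter, and -0.75 to -0.14 when libraries were left out; it rested on 3 genes with no excluded UMI and without control replicate 2 or 3. Genes responding differently from astrocytes numbered 0 to 209 when libraries were left out and 0 with a replicate block. Deviations of same-numbered libraries correlated at -0.00179 and 0.00936 over 2 pairs. With 2 sevoflurane libraries the deviations mirror each other, so these values cannot decide whether the numbers mark pairs. The replicate block gave FKBP5 a log2 fold change of -0.84. Depth limits the expression results: sevoflurane ependymal cells held 141886, 167547 and 24122 UMIs in all.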

Other observations

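With sevoflurane replicate 2 left out, the 3 genes called higher in ependymal cells were HTR2C, TRPM3 and RELN, with edgeR log2 fold changes of 5.27, 2.54 and 3.35 against the controls, named after their values were seen. HTR2C and TRPM3 are known as abundant in choroid plexus epithelium. In astrocytes the 4 genes called by edgeR without sevoflurane replicate 3 were ALK, PDE3A, DDIT4 and ENSCJAG00000051681. Their log2 fold changes were 2.91, -1.89, 1.75 and 1.38, and they were also named after their values were seen. DDIT4 did not pass the low count filter in ependymal cells, so its responses in the 2 cell types were not compared. Over the 7289 genes that passed in both, limma called 0 as responding differently, with 711 at an unadjusted p under 0.05.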
